A study of Mus musculus with 6 samples.

Results

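The EHD genes of mouse, Ehd1 (ENSMUSG00000024772), Ehd2 (ENSMUSG00000074364), Ehd3 (ENSMUSG00000024065) and Ehd4 (ENSMUSG00000027293), are described here in sorted cells of the renal medulla after kidney ischemia. They are 4 of the 37583 genes in the deposited table and were found by symbol, with their read counts matched by gene identifier. They were chosen by their measured levels in these same samples, in which members of the family differed from sham in opposite directions after ischemia, so their values in that contrast are given as a description and no test is made on them. RNA was sequenced in 6 libraries. Of these, 3 came from mice whose renal blood supply had been stopped and restored (ischemia-reperfusion injury, IRI) 2 h before, and 3 from mice given a sham operation 2 h before. All mice, IRI and sham alike, were 12 weeks old and carried an EGFP transgene named for the B1 proton pump subunit, which the design text states is specific to intercalated cells, the acid- and base-secreting cells of the collecting duct. EGFP-positive cells were sorted in a double sort, and each library pooled 4 kidneys of 2 mice. The genotype entry also names Cx3cr1 as the gene that controls EGFP, and the tissue entry reads epididymis where the design text reads renal medulla.

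EHD proteins are membrane-bound ATPases of the dynamin type that carry an EH domain at one end, a fold that grips short asparagine-proline-phenylalanine motifs in partner proteins. They bend and cut the tubules through which receptors taken up at the cell surface travel back to it. EHD1 acts on the exit from the recycling compartment, EHD3, its closest relative, on the step from early endosomes to that compartment, EHD4 on early endosomes, and EHD2 at the neck of caveolae, the flask-shaped pits of the plasma membrane. In the mouse kidney, EHD3 is known from glomerular endothelium, loss of EHD3 together with EHD4 damages glomerular capillaries, and EHD4 has been tied to urine concentration.

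The promoters of Ehd4, Ehd2 and Ehd3, the 3 members matched in the RefSeq table by symbol, are shown so that members with higher levels after IRI (Ehd4 and Ehd2) can be read beside the one with a lower level (Ehd3). Each is the 250 bases before the RefSeq start on GRCm38.p6, 5′ to 3′ on the gene's strand, and capitals mark the letters TGACG (the half-site that CREB and ATF factors bind) and CCAAT on either strand.
Ehd4 (chr2:120154576-120154825, minus strand): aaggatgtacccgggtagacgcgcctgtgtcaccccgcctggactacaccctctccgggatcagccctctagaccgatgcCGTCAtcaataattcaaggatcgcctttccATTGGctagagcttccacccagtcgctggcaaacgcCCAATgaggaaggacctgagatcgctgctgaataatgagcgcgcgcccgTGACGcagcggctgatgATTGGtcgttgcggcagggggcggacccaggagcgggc
Ehd2 (chr7:15967536-15967785, minus strand): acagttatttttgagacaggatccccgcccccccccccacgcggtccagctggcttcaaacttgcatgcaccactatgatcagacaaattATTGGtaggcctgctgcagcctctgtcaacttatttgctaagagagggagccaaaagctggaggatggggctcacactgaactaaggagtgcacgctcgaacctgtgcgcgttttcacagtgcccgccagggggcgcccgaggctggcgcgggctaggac
Ehd3 (chr17:73804591-73804840, plus strand): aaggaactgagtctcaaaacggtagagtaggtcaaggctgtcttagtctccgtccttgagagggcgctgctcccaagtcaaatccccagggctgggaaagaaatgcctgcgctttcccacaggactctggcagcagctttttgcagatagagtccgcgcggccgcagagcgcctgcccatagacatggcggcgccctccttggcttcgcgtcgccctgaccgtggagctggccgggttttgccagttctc
The Ehd4 stretch held 2 matches to TGACG, beginning 170 and 55 bases before the start, and 3 to CCAAT, beginning 140, 104 and 38 bases before it. The Ehd2 stretch held 1 match to CCAAT, 160 bases before the start, and the Ehd3 stretch held neither word. Of 32841 mouse promoter stretches of the same length, 17.8% held TGACG and 33.9% held CCAAT. The AP-1 site TGACTCA (in 4.46% of those stretches), the hypoxia-factor core ACGTG (16.6%), the C/EBP site TTGCNNAA (9.57%), the NF-kB consensus (7.25%) and the CArG box of serum response factor (1.47%) were searched on both strands too, and their letters were in none of these windows. The hypoxia-factor core was searched in its ACGTG form only, not as GCGTG.

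The sorted cells carried the transcripts of intercalated cells in every library. Atp6v1b1, the pump subunit after which the transgene is named, was at 1088, 1422 and 1234 CPM (read counts scaled to library size) in IRI and 1480, 1716 and 1657 CPM in sham. Foxi1, the transcription factor of intercalated cells, was at 1834, 1640.0 and 1090.1 CPM in IRI and 1219, 1291 and 1053 CPM in sham. The libraries held 17421669 to 24245330 reads in genes. Low counts kept 9 of 12 epididymis markers out of the tests, while Spink8 averaged 851 ± 63.0 CPM in IRI and 1315 ± 389 CPM in sham (SD, n = 3 each). Markers of other cells were present: summed over each list, principal cell markers reached 6066 to 11810 CPM in IRI and 12231 to 13650 CPM in sham, those of the thick ascending limb and distal tubule 2139 to 2317 CPM in IRI and 1878 to 3840 CPM in sham, and macrophage and dendritic cell markers 229 to 328 CPM in IRI and 68.7 to 293 CPM in sham. Scarcer were fibroblast, pericyte and smooth muscle markers, at 16.9 to 40.3 CPM in IRI and 19.2 to 84.3 CPM in sham, proximal tubule markers, at 3.07 to 7.14 CPM in IRI and 5.06 to 8.04 CPM in sham, and podocyte markers, at 4.34 to 6.78 CPM in IRI and 1.02 to 1.63 CPM in sham. What these cells contribute to the EHD values was not tested.

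Ehd4 was the EHD transcript that stood furthest apart between the groups. It reached 95.0, 81.9 and 72.0 RPKM (reads scaled to gene length and library size, as deposited) in the 3 IRI libraries, against 11.5, 10.7 and 10.5 RPKM in the 3 sham libraries. The lowest IRI library was at 6.27 times the level of the highest sham library. These levels rested on 8487, 7275 and 6081 reads in IRI and 1155, 994 and 768 reads in sham. The fitted log2 fold change of IRI over sham was 2.97 ± 0.12 (SE), a 7.81-fold higher level. Only 272 of the 13881 genes tested had a larger value. Among tested genes ranked by RPKM, Ehd4 stood above 92.1% to 94.1% of them in IRI libraries and above 68.9% to 70.5% in sham libraries. In bulk RNA, a change in the number of cells of a type and a change in RNA per cell cannot be told apart.

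Ehd1, which drives the exit of recycling cargo to the surface, was the second member that was plainly higher after IRI. Its levels were 36.1, 42.3 and 35.6 RPKM in IRI and 10.9, 12.5 and 11.4 RPKM in sham. The groups did not overlap, and the lowest IRI library was 2.84 times the highest sham library. It was covered by 2991, 3491 and 2789 reads in IRI and 1013, 1086 and 770 reads in sham. The log2 fold change was 1.75 ± 0.11 (SE), or 3.36-fold, and 778 tested genes had a larger one. In IRI replicate 2 Ehd1 was highest and Ehd4 was in the middle of its group, so the libraries did not keep one order for both genes.

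Ehd2, the caveolar member, was scarce and variable. It stood at 2.90, 2.27 and 1.66 RPKM in IRI and at 1.15, 0.460 and 0.715 RPKM in sham, from 446, 348 and 242 reads in IRI and 199, 74 and 90 reads in sham. Every IRI library was above every sham library, but the gap was narrow: IRI replicate 3 was 1.45 times sham replicate 1. The log2 fold change was 1.59 ± 0.34 (SE), or 3.00-fold, and it ranged from 1.31 without sham replicate 2 to 1.97 without sham replicate 1.

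Ehd3 went the other way. Its levels were 0.993, 1.17 and 1.13 RPKM in IRI, against 2.42, 2.86 and 1.91 RPKM in sham. The lowest sham library was 1.63 times the highest IRI library. Its reads numbered 81, 95 and 87 in IRI and 222, 244 and 127 in sham. The log2 fold change was -1.09 ± 0.21 (SE), a 2.13-fold lower level, and 1163 of the tested genes had a lower value. The closest relative of Ehd3 is Ehd1, whose log2 fold change had the opposite sign.

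All 4 members passed the filter on low counts. In 3 of them every IRI library lay above every sham library and in 1 below, which follows from how they were chosen. For comparison, the groups did not overlap for 56.4% of the 13881 genes tested, with IRI above in 29.2% and below in 27.2%. The median log2 fold change over these genes was 0.00037.

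**Figure D1:**
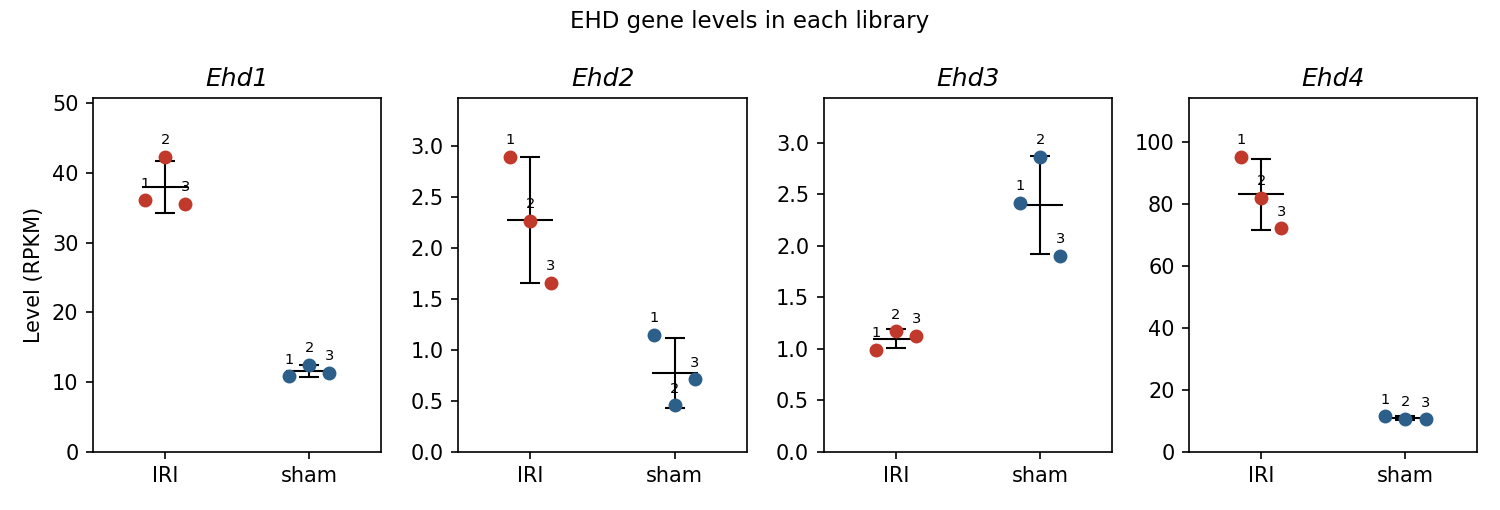
Level of each EHD gene (RPKM, vertical axis from 0, a scale of its own in each panel) in 3 IRI and 3 sham libraries; points are libraries marked with their replicate number, and bars give the mean ± SD. Ehd4 lies at 72.0 to 95.0 RPKM in IRI and 10.5 to 11.5 RPKM in sham, whereas Ehd3 is lower in IRI.

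The order of the 4 genes, compared per length in RPKM, differed between the groups. In every IRI library it was Ehd4, Ehd1, Ehd2 and Ehd3, and no neighbours in that order overlapped across the 3 libraries. In sham, Ehd1 (10.9 to 12.5 RPKM) and Ehd4 (10.5 to 11.5 RPKM) overlapped, with Ehd4 on top in replicate 1 and Ehd1 on top in replicates 2 and 3. Below them, Ehd3 was above Ehd2 in all 3 sham libraries, by 2.11 to 6.23 times. In IRI this pair had changed places, with Ehd2 1.47 to 2.92 times the level of Ehd3. The Ehd4 level was 63.8 to 95.7 times that of Ehd3 in IRI and 3.72 to 5.52 times in sham. These ratios are taken within a library, so they do not depend on how libraries were scaled against each other, but they do rest on the gene lengths in the deposited table, which run from 3652 bases for Ehd3 to 6895 bases for Ehd2.

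Summed over the family, EHD transcripts amounted to 135, 128 and 110 RPKM in IRI and 25.9, 26.5 and 24.5 RPKM in sham, a 4.85-fold ratio of the means. Of the difference in this sum, Ehd4 made up 73.1% and Ehd1 26.7%. Ehd2 added 1.52%, and Ehd3, with a difference of -1.30 RPKM, took away about as much. Ehd4 was 66.6 ± 3.34% of the family in IRI and 42.5 ± 2.12% in sham (SD, n = 3 each). Ehd1 held a smaller share of the family in IRI, 30.7 ± 3.48%, than in sham, 45.2 ± 2.89%, although its own level was higher in IRI. Ehd3 made up 0.736% to 1.02% of the family in IRI and 7.78% to 10.8% in sham. The shares of Ehd2 overlapped, at 1.51% to 2.15% in IRI and 1.74% to 4.43% in sham, so its higher level was not a larger part of the family.

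**Figure D2:**
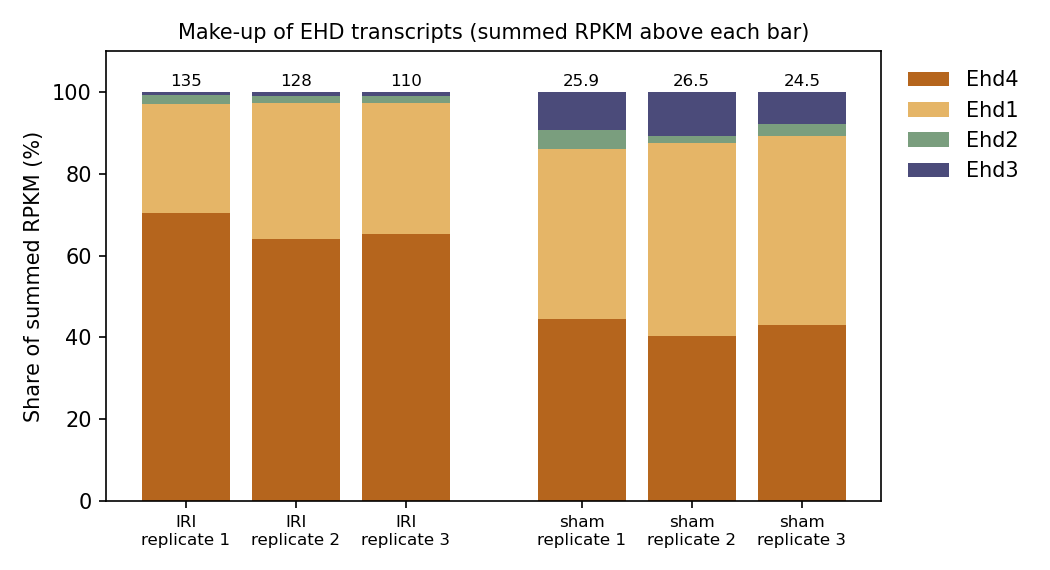
Share of each EHD gene in the summed RPKM of the family (percent, vertical axis) for each library, with the sum in RPKM above its bar; IRI libraries are on the left and sham libraries on the right. Ehd4 takes 64.2% to 70.4% in IRI and 40.2% to 44.4% in sham.

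The members differed in how closely replicates agreed. The coefficient of variation of CPM was 13.0% in IRI and 4.74% in sham for Ehd4, and 10.3% in IRI and 7.19% in sham for Ehd1. For these genes counting error alone would give 1.17% in IRI and 3.21% in sham for Ehd4, and 1.80% in IRI and 3.23% in sham for Ehd1. Ehd2 varied by 26.2% in IRI and 44.9% in sham, where its read numbers alone would give 5.38% in IRI and 9.09% in sham. Ehd3 varied by 9.29% in IRI, no more than the 10.7% that counting error gives, and by 19.6% in sham against 7.11%. The fitted biological coefficient of variation was 11.5% for Ehd1, 11.9% for Ehd4, 19.5% for Ehd3 and 29.3% for Ehd2, with a median of 16.8% over the genes tested. Ehd2 was thus more variable than 82.6% of the genes tested and Ehd1 than 12.3%. Counting error here treats reads as independent molecules, which PCR copies are not.

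The other genes of the recycling pathway, and markers of other cells, were tested with edgeR's quasi-likelihood test, with p adjusted by Benjamini-Hochberg over the 13881 genes tested and a call at an adjusted p under 0.05. By this rule 45.5% of the genes tested were called, 24.2% higher and 21.2% lower in IRI. The split rests on scaling: the share of calls that were higher was 53.3% with TMM, 42.0% when scaled on the upper quartile and 35.6% on library size alone, and these last scalings moved the median log2 fold change by -0.12 and -0.20.

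Endothelial transcripts were examined beside the members, since EHD3 is known from endothelium and caveolae abound there. Pecam1 and Cdh5, which define endothelial cells, had few reads: Pecam1 had 34, 19 and 15 in IRI and 0, 7 and 16 in sham, and Cdh5 had 11, 4 and 7 in IRI and 0, 2 and 1 in sham. The 0 reads of either gene in sham replicate 1 allow up to 0.118 CPM for each (3 reads). Some other markers of the list, such as Plvap and Egfl7, were at levels like those of the scarcer EHD genes. Flt1, Kdr, Tek, Tie1, Vwf and Eng were below them, at no more than 0.140 RPKM in any library. Plvap, a protein of fenestrated endothelium, was at 4.50, 1.93 and 2.15 RPKM in IRI and 0.257, 1.24 and 1.75 RPKM in sham, and Egfl7, a secreted endothelial protein, at 1.05, 1.05 and 1.86 RPKM in IRI and 1.66, 1.64 and 1.68 RPKM in sham. Levels of Plvap in IRI were above those of Ehd3 in IRI (0.993 to 1.17 RPKM), and levels of Egfl7 in sham were above those of Ehd2 in sham (0.460 to 1.15 RPKM). In sham both markers were below Ehd3 (1.91 to 2.86 RPKM), and the remaining pairings of these genes within a group overlapped. The 12 endothelial markers summed to 12.2 to 22.3 CPM in IRI and 7.50 to 14.5 CPM in sham. Of the 7 tested, 1, the VEGF receptor Flt1, was called higher, with 36, 32 and 33 reads in IRI and 0, 3 and 7 in sham (edgeR adjusted p = 0.00588), and 6 had no call. The part of endothelial RNA in the Ehd2 and Ehd3 values was not tested. Among the tested markers of other cells, 4 of 12 macrophage, 2 of 3 fibroblast and 1 of 2 podocyte markers were called higher, and 2 of 7 principal cell, 3 of 11 intercalated cell (Atp6v1b1 among them, edgeR adjusted p = 0.0427, and 0.0882 to 0.119 without IRI replicates 1 or 3 or sham replicates 2 or 3), 1 of 3 proximal tubule and 1 of 3 epididymis markers were called lower. The remaining intercalated cell markers called lower were Rhcg (log2 -1.01 ± 0.19, edgeR adjusted p = 0.00283) and Insrr (log2 -1.62 ± 0.34, edgeR adjusted p = 0.00835). The macrophage markers called were Cd68, Cd14, Lyz2 and Ptprc. Cd68, a lysosomal protein, was at 31.5, 53.9 and 27.8 CPM in IRI and 0.550, 1.18 and 0.978 CPM in sham (log2 5.39 ± 0.37, edgeR adjusted p = 3.88e-05). Cd14, a receptor for bacterial lipopolysaccharide, was at 39.3, 36.4 and 22.2 CPM in IRI and 10.5, 5.52 and 7.55 CPM in sham (log2 2.05 ± 0.29, edgeR adjusted p = 0.000976). Cd74, the most abundant marker of that list, averaged 158 ± 64.5 CPM in IRI and 120 ± 105 CPM in sham with no call. No distal tubule marker of 5 was called by edgeR, with 0 at an unadjusted p under 0.05 and 1 lower in the DESeq2 fit.

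Proteins that bind EHD proteins were more often higher than lower. Of 16 listed partners, all tested, 8 rose and 1 fell (median log2 fold change 0.43, against 0.00037 over all genes). That is 56.25% called, against 45.5% of all genes tested (24.2% higher and 21.2% lower). Myof, a ferlin that EHD1 and EHD2 bind in muscle cells, rose 4.70-fold, to 33.3 ± 4.97 CPM in IRI against 7.08 ± 0.93 CPM in sham (log2 2.23 ± 0.17, edgeR adjusted p = 2.47e-05). Micall1, which recruits EHD1 to recycling tubules, stood at 42.1 ± 6.11 CPM in IRI and 23.3 ± 1.10 CPM in sham (log2 0.86 ± 0.13, edgeR adjusted p = 0.000976). Its paralog Micall2 rose as well, to 10.6 ± 3.07 CPM in IRI against 1.03 ± 0.45 CPM in sham (edgeR adjusted p = 0.000126). The syndapins, which shape membranes together with EHD proteins, were divided: Pacsin3 rose 2.10-fold (edgeR adjusted p = 0.000193) and the abundant Pacsin2 1.62-fold (edgeR adjusted p = 0.000393), while Pacsin1 averaged 5.29 ± 2.67 CPM in IRI and 8.99 ± 2.46 CPM in sham with no call (edgeR adjusted p = 0.141). Without IRI replicate 3, its highest IRI library, Pacsin1 was called lower (log2 -1.19, edgeR adjusted p = 0.0252). Ehbp1l1 (log2 2.22), Numb (log2 0.92) and Snap29 (log2 0.58) were the remaining partners called higher. The Rab11 effectors Rab11fip5 (log2 0.28, edgeR adjusted p = 0.0619) and Rab11fip2 (log2 -0.21, edgeR adjusted p = 0.275) had no call. Fer1l5, the partner that fell, was scarce at 0.792 ± 0.234 CPM in IRI and 1.72 ± 0.46 CPM in sham (log2 -1.12 ± 0.37, edgeR adjusted p = 0.0341). Its call was lost without IRI replicates 1 or 2 or sham replicates 1 or 2 (edgeR adjusted p 0.0645 to 0.109) and with DESeq2 (adjusted p = 0.0531), and without IRI replicate 3 the number of partners called lower was 2.

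Other proteins carry an EH domain too. Of 7 tested, 3 rose and none fell by edgeR's quasi-likelihood test. The 42.9% called was close to the 45.5% of all genes tested. The count of lower genes was also 0 by DESeq2 and 0 at an unadjusted p under 0.05. Those that rose were Eps15 (log2 0.71 ± 0.10), the scaffold Itsn2 (log2 0.61 ± 0.10) and Synrg (log2 0.70 ± 0.14), which act at clathrin-coated membranes, with edgeR adjusted p of 0.000558 to 0.00352.

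The caveolar genes, which work where EHD2 does, moved in both directions. Of 5 tested among 7, 3 rose and 1 fell, or 80% called against 45.5% of all genes tested. Cavin1 (listed as Ptrf), the coat protein needed for caveolae to form, was at 71.7, 71.1 and 52.2 CPM in IRI and 14.8, 14.4 and 16.8 CPM in sham (log2 2.08 ± 0.15, edgeR adjusted p = 2.2e-05). Cavin2 (listed as Sdpr) was at 25.0, 29.9 and 33.3 CPM in IRI and 92.8, 65.3 and 76.2 CPM in sham (log2 -1.41 ± 0.16, edgeR adjusted p = 0.00018). In sham, replicate 1 was the highest for Cavin2 as it was for Ehd2, but in IRI replicate 1 was the lowest for Cavin2 and the highest for Ehd2. Cav2 rose 1.42-fold (edgeR adjusted p = 0.011), a call lost with library size alone (adjusted p = 0.0751). Cavin3 (listed as Prkcdbp) rose 2.45-fold (edgeR adjusted p = 0.0155, and 0.0517 without sham replicate 3). Cav1, the main structural caveolin outside muscle, averaged 244 ± 29.8 CPM in IRI and 245 ± 26.5 CPM in sham, with a log2 fold change of -0.0044 ± 0.13 and no call.

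**Figure D3:**
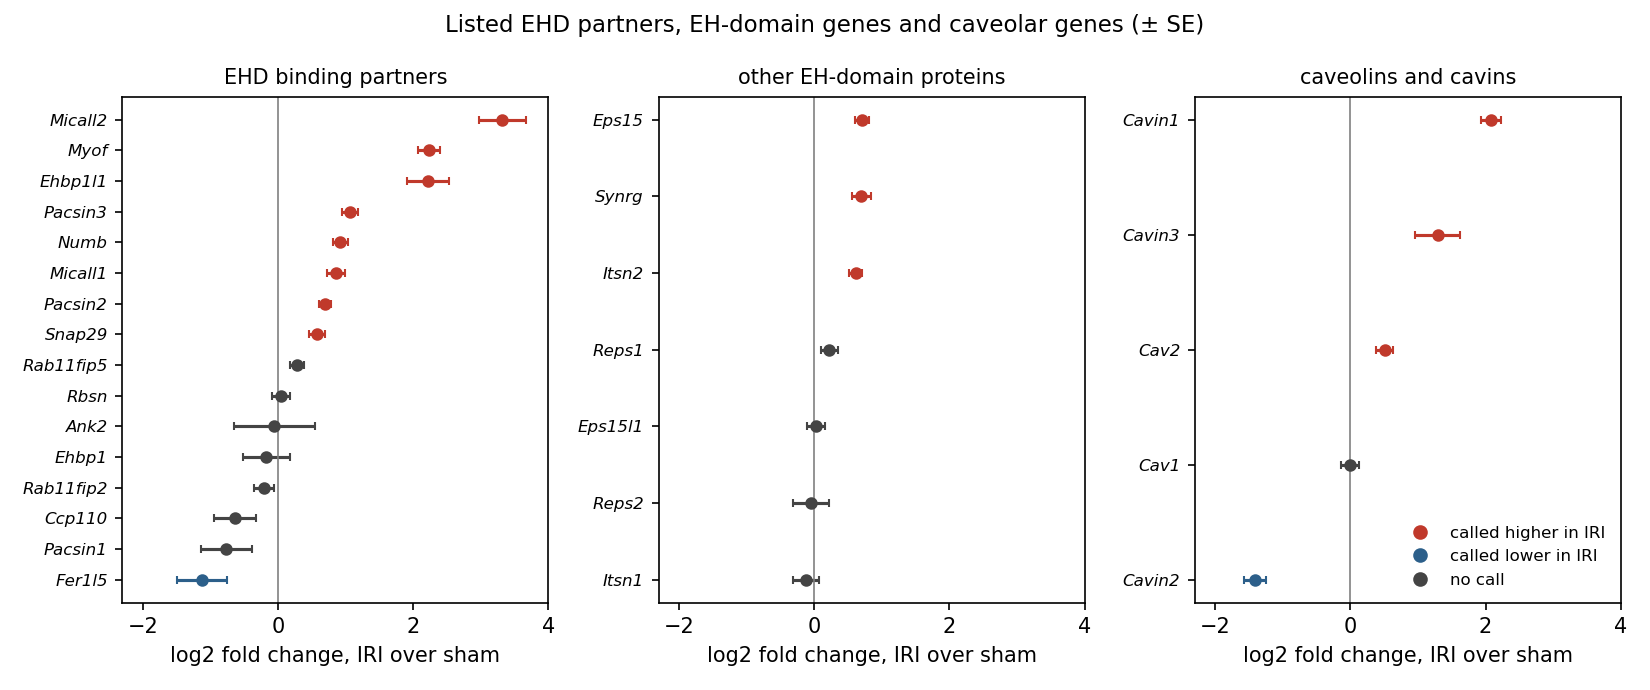
Fitted log2 fold change of IRI over sham ± SE (horizontal axis) for tested EHD binding partners, other EH-domain proteins and caveolar genes; red points were called higher in IRI, blue points lower, and dark grey points had no call. Micall2 and Myof lie at 3.32 and 2.23, and Cavin1 and Cavin2 at 2.08 and -1.41.

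Among 30 genes of early and recycling endosomes (Rab GTPases, Arf6, effectors and motors), 13 rose and 4 fell (median log2 0.14), or 56.7% called against 45.5% of all genes tested. Rab11a, the GTPase of the recycling compartment on which EHD1 acts, rose 2.44-fold (log2 1.29 ± 0.11, edgeR adjusted p = 4.26e-05), and Rab22a (log2 0.85) and Rab8b (log2 1.11) rose too. Rab17 (log2 -1.65), which serves recycling in polarized epithelia, and the Rab11 effectors Rab11fip3 (log2 -1.22) and Rab11fip4 (log2 -1.72) fell, with edgeR adjusted p of 8.82e-06 to 0.000248. Rab14 had a log2 fold change of -0.06 and no call (edgeR adjusted p = 0.646), but on library size alone it was called lower (log2 -0.26, edgeR adjusted p = 0.0316). Retromer, retriever, the WASH complex and sorting nexins sort cargo into the same tubules. Of 21 tested genes of these, 5 rose and 7 fell (57.1% called, median log2 -0.19). They included the sorting nexins Snx4 (log2 0.71) and Snx6 (log2 0.63) and the WASH subunit Washc5 (log2 0.72) among the higher, and Washc3 (log2 -0.94), Washc2 (log2 -0.51) and Snx5 (log2 -0.41) among the lower.

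Of 19 tested genes of the clathrin coat, the adaptor AP-2 and the dynamins, 11 rose and none fell by edgeR (median log2 0.49). That is 57.9% called, against 45.5% of all genes tested. DESeq2 called 0 lower, while 1 was lower at an unadjusted p under 0.05. The smallest adjusted p belonged to Ap2b1 (log2 1.20 ± 0.12), Ap2m1 (log2 0.87 ± 0.13) and Cltb (log2 0.78 ± 0.12), with edgeR adjusted p of 8.74e-05 to 0.000779. The number higher was 7 without IRI replicate 2 and 6 without sham replicate 3 or with library size alone.

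Receptors and transporters described as cargo of EHD proteins were split, with 4 of 12 tested higher and 3 lower (median log2 0.11). That is 58.3% called, against 45.5% of all genes tested. The integrin Itgb1, whose recycling needs EHD1, rose 1.68-fold (log2 0.75 ± 0.10, edgeR adjusted p = 0.000525). The class I genes H2-K1 (log2 0.60) and B2m (log2 0.57) were called higher, though H2-K1 has near-identical relatives that can share its reads. Slc8a1, the sodium-calcium exchanger that EHD3 carries to the surface of heart muscle cells, was at 12.1 ± 2.20 CPM in IRI and 32.7 ± 6.90 CPM in sham (log2 -1.43 ± 0.20, edgeR adjusted p = 0.00051). The glucose transporter Slc2a4 fell too (log2 -0.83 ± 0.13, edgeR adjusted p = 0.0011). Aqp2, the water channel tied to EHD4 in urine concentration, averaged 6573 ± 2441 CPM in IRI and 9355 ± 329 CPM in sham with no call (edgeR adjusted p = 0.127), and was called lower without IRI replicate 1 (log2 -0.81, adjusted p = 0.0119) and by DESeq2 (adjusted p = 0.0492). Without IRI replicate 2, where B2m lost its call (edgeR adjusted p = 0.079), 2 cargo genes were higher, and without IRI replicate 1, 5 were lower. B2m also lost its call without sham replicates 1 or 3 (edgeR adjusted p = 0.0786 and 0.0703).

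Likeness of pattern was measured by Pearson's r of log2 CPM over the 6 libraries, among genes whose mean log2 CPM was 3 or more. Both groups enter this r, so the step between them is part of it. It was over 0.95 for 1243 of 8278 genes with Ehd1 and 1194 with Ehd4, but for 197 with Ehd2 and 158 of 8279 with Ehd3. Closest to Ehd4 were Rnf11, the ribonuclease inhibitor Rnh1 and the Arp2/3 subunit Arpc5 (each r = 0.999). Closest to Ehd1 were the calmodulin gene Calm2, which has near-identical copies, Dnttip1 and Sgsm3 (each r = 0.999). Ehd2 was nearest to the immunity-related GTPase Irgm2 (r = 0.999), the ceramide synthase Lass5 and the membrane protein Pllp (each r = 0.995). Ehd3 was nearest to Lin52 (r = 0.998), the sulfatase-activating enzyme Sumf1 (r = 0.997) and Hmg20b (r = 0.996).

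Across processing choices the direction of the 4 members did not change. This adds little, since they were chosen by direction in these samples and their groups did not overlap. Leaving out 1 library at a time gave log2 fold changes of 2.87 to 3.06 for Ehd4, 1.64 to 1.81 for Ehd1, 1.31 to 1.97 for Ehd2 and -1.26 to -0.95 for Ehd3. The other 7 alternatives gave 2.77 to 2.96, 1.55 to 1.75, 1.38 to 1.64 and -1.29 to -1.08 in the same order of genes. No window of 50 bases in the GENCODE M21 transcripts of one EHD gene was found in those of another, and no exon of another annotated gene overlapped theirs; 4 windows of Ehd3, 0.0615% of its windows, recurred in transcripts of other genes.

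**Figure D4:**
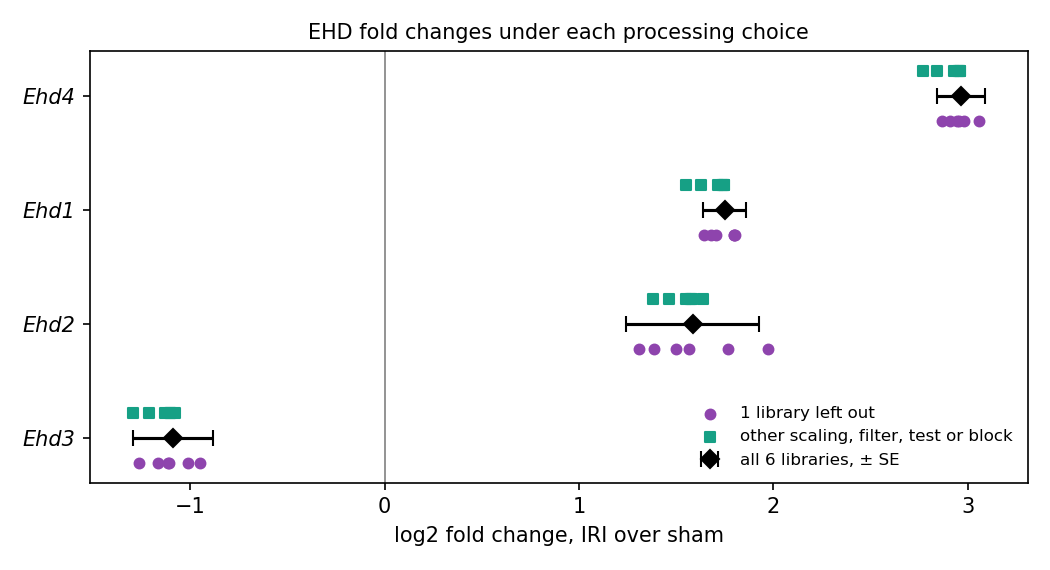
Fitted log2 fold change of IRI over sham (horizontal axis) for each EHD gene with all 6 libraries (diamond ± SE), with 1 library left out (circles) and under the other alternatives (squares). Ehd2 moves the most, between 1.31 and 1.97, and no point crosses 0.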

How the data were processed

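RNA of sorted EGFP-positive cells was sequenced in 3 IRI and 3 sham libraries, grouped by their titles. The deposited counts are raw whole reads per gene. STAR, HTSeq and edgeR, and the build mm9, are named in the submitters' processing notes; the sources used here give neither versions nor gene models. Per the file names, strand was not used in counting. The deposited RPKM values, per the file headers, come with symbols and lengths, and equalled count over length and an effective library of 0.917 to 1.09 times the gene total for genes over 50 reads. Of recorded reads, 49.1% to 50.7% were in genes; 5 summary entries without a gene were dropped.

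Counts were tested with edgeR 4.0.16 (R 4.3.3): filterByExpr (13881 genes), TMM scaling, robust quasi-likelihood fit with group as the only term, Benjamini-Hochberg adjustment. Standard errors come from the F statistic. DESeq2 1.42.0, other scalings and filters, a replicate block and leaving out each library were alternatives. The steps were tested on simulated counts. Whether samples of a group are separate experiments is not in the labels, and p-values then measure only how these pooled samples spread, which may be technical. The members and the 7 pathway and 9 marker lists were chosen with earlier results of these data known. The naming rule took, per pathway list, the 3 higher and 3 lower genes with the smallest p and the 2 most abundant uncalled genes, per marker list the 3 most abundant, per member the 3 most alike genes, and Foxi1, Atp6v1b1, Aqp2, Pecam1, Cdh5 and Cav1. Not every gene it names is described, some cargo genes are not reported here, and Micall1, Pacsin1, Pacsin2, Ehbp1l1, Numb, Snap29, Flt1, Lyz2 and Ptprc were chosen after their values were seen. Promoter sequences are from RefSeq on GRCm38.p6 and matched 3 of 4 members by symbol.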

Additional observations from a re-analysis of the deposited data

How the results depend on the processing

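The log2 fold changes of the 4 EHD genes kept their sign under all 13 alternatives, which their choice by direction made likely beforehand. Relative to the spread between replicates, those of Ehd1 and Ehd4 moved with library size alone, to 1.55 and 2.77, where the median of all genes moved by -0.200. Family shares kept their values within 1 SD, except those of Ehd2, which became 3.15% in IRI and 5.30% in sham when counts were not divided by gene length. Over all genes, 3364 were higher and 2948 lower; leaving out 1 library gave 2566 to 3172 higher and 2295 to 2734 lower. Counts of called genes that moved by over 1.5 times were few. EHD partners called lower (1) were 0 with the stricter filter and with DESeq2, and 0 to 2 leaving out 1 library. Genes in the list of recycling Rabs, Arf6, effectors and motors called lower (4) were 8 with library size alone. Clathrin, AP-2 and dynamin genes called higher (11) were 6 with library size alone and 6 to 10 leaving out 1 library; those called lower (0) were 1 when scaled on the upper quartile or on library size alone, and 0 to 1 leaving out 1 library. Cargo genes called lower (3) were 5 with library size alone and 3 to 5 leaving out 1 library, and those called higher (4) were 2 to 4. The log2 fold change of Cav1 ranged from -0.0953 to 0.0725 leaving out 1 library. Another call on a single gene was lost by B2m when scaled on the upper quartile or library size (adjusted p = 0.0513 and 0.0571). The call on Atp6v1b1 was lost in 4 and that on Spink8 in 5 of the 6 fits without 1 library, and Foxi1 was called higher without IRI replicate 3 (log2 0.55, adjusted p = 0.0149). The causes were not tested. IRI and sham libraries share replicate numbers, but the labels do not say what a number marks. Deviations from the group means correlated at 0.182, 0.095 and 0.178 between libraries of the same number, and each library correlated best with its own number, a hint from the data and not the design. With the replicate number as a block, 3368 genes were higher and 3095 lower, the members' log2 fold changes were 1.75 (Ehd1), 1.64 (Ehd2), -1.08 (Ehd3) and 2.96 (Ehd4), and among the genes named Fer1l5 lost its call (adjusted p = 0.0543) and Pacsin1 gained one (adjusted p = 0.0139). Depth is lowest for Ehd3 in IRI, at 81 to 95 reads a library, and Ehd2 in sham, at 74 to 199.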
